A study of Homo sapiens with 6 samples.

Results

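WT-alone regions are the peaks of open chromatin that were listed in wild-type (WT) neural progenitor cells (NPCs) and had no overlapping peak, not even by 1 bp, in the lists of either mutant group. There were 1166 such regions among the 7880 WT peaks, or 14.8% of them, and 50267 peaks in the 3 lists together. The assay was ATAC-seq, which uses a transposase (Tn5) to cut open DNA and tag it for sequencing, and the NPCs were made from H1, a human embryonic stem cell line. There were 3 groups with 2 replicates each (6 samples): unmodified WT NPCs, dKO NPCs that lack the catalytic parts of both UTX (gene KDM6A) and JMJD3 (gene KDM6B), and dKO NPCs to which BAF53B had been added by lentivirus. The dKO cells came from edited stem cells selected as clones, so the genotype and the clone cannot be told apart. Each group was analysed as 1 peak list pooled over both replicates by the authors. No spread between replicates and no p-value can therefore be given, and the 95% intervals of shares below are Wilson intervals that cover counting error only.

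UTX and JMJD3 are demethylases that remove a repressive methyl mark from histone H3, a mark laid down by polycomb complexes. BAF53B, encoded by ACTL6B, is the neuronal form of an actin-like subunit of the BAF chromatin remodelling complex, which moves nucleosomes and opens DNA. Open regions at gene starts are often bound by general factors and are shared by many cell types, whereas open regions far from gene starts are commonly enhancers that are bound by cell type-specific or signal-dependent factors. AP-1 dimers of FOS and JUN proteins, RFX factors, which drive genes of the cilium, and CTCF, which organises chromatin loops, are among the factors that bind such regions through short sequences.

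The WT list itself held peaks at 13 of 32 listed genes of NPCs and radial glia, counted within the gene body or 3 kb on either side. These genes included PAX6, NES, VIM and SOX9, while SOX1 and SOX2 had none. Of 13 pluripotency genes 3 had a WT peak, and POU5F1 and NANOG had none. Of 16 epithelial genes EPCAM alone had a WT peak. The share of all protein-coding genes with a WT peak is not given here, so these counts cannot be called high or low.

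The sequences that carry the features described below are shown first, each with 100 bp on either side of the summit base in build hg38. The 3 WT-alone regions of highest −log10 q that held the AP-1 consensus TGAGTCA, in capitals on either strand, lay in an intron of TSPAN5, a tetraspanin, in a lncRNA gene upstream of SLC12A2, a cotransporter of sodium, potassium and chloride, and in intergenic DNA near HK2, a hexokinase.
TSPAN5 intron, chr4:98522686-98522886, plus strand: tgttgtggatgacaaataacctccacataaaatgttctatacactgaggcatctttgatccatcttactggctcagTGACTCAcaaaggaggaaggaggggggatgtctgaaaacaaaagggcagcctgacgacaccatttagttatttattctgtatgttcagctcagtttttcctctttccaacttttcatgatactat
upstream of SLC12A2, chr5:127988219-127988419, plus strand: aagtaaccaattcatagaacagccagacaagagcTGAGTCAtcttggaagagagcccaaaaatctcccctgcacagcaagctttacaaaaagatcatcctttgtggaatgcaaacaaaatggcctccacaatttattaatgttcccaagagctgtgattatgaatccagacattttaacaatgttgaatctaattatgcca
near HK2, chr2:74894772-74894972, plus strand: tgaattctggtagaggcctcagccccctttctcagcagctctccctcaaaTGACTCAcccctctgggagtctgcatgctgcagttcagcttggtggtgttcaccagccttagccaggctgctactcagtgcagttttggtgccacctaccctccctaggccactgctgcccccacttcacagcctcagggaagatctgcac
The next 3 held the RFX consensus, in capitals, and were those of highest −log10 q among the ones that could be shown, which leaves out windows that touch an untranslated exon. The first 2 lay over exons of BICC1, an RNA-binding protein, and SYNE1, a protein of the nuclear envelope, and the third lay upstream of STMN1, a regulator of microtubules.
BICC1 exon, chr10:58796311-58796511, plus strand: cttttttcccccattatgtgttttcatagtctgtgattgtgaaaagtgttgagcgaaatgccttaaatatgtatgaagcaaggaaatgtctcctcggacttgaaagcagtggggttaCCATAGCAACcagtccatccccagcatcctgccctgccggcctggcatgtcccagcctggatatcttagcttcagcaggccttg
SYNE1 exon, chr6:152381256-152381456, plus strand: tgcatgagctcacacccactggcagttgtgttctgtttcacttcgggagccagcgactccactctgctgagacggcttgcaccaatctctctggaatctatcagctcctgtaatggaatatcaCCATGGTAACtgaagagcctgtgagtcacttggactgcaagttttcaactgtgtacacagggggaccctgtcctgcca
upstream of STMN1, chr1:25927628-25927828, plus strand: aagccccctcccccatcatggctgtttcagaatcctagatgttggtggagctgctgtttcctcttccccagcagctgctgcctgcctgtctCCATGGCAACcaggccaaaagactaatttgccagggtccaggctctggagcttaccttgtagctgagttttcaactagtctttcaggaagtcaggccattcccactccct
The last 3 had no exact match to the AP-1 or RFX consensus. The first has no capitals and is the strongest region without an exact match for any of the 3 factors. It reads ccatgggaac close to its summit, which resembles the RFX match of the STMN1 region. Such near matches were not counted, so the RFX counts below are of exact matches only. The other two hold the CTCF consensus in capitals, and the ANXA4 region was added to the set after its match was seen. That region lies in the body of ANXA4 but outside the transcript that the annotation marks as canonical, which is called an intron here.
upstream of LIMCH1, chr4:41340553-41340753, plus strand: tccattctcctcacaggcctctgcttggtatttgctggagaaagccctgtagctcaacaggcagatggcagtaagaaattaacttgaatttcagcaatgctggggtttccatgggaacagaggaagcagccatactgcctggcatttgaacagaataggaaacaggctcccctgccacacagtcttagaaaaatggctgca
upstream of CCDC179, chr11:22875961-22876161, plus strand: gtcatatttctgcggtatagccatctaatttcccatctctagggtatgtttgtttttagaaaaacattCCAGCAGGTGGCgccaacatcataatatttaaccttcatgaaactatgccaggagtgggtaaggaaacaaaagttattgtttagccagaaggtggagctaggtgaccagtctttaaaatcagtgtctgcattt
ANXA4 intron, chr2:69724787-69724987, plus strand: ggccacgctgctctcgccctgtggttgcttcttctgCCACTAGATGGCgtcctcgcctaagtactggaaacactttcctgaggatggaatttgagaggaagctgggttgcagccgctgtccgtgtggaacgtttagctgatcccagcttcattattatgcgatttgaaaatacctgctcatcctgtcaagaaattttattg

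WT-alone regions were chosen by their absence from the other lists, and the heights that follow are a description of what that choice selected. The summit pileup, which is how many sequenced fragments cover the highest point of a peak, had a median of 28 and ranged from 25 to 49. The smallest pileup in the whole WT list was also 25, and 396 of the 1166 regions had a pileup of 25 or 26. In WT peaks that overlapped peaks of both other lists (5808, called all-list peaks here) the median pileup was 39. In the 459 WT peaks shared with the BAF53B list only, and in the 447 shared with the dKO list only, the median was 32. The fold enrichment, the ratio of pileup to local background after MACS2 adds 1 to each, had a median of 3.56 in WT-alone regions (2.54 to 5.29) and 4.03 in all-list peaks. The −log10 q had a median of 5.61 against a lowest listed value of 5.00, and 741 regions (63.6%) were under 6. The regions were also narrow, with a median width of 288 bp against 542 bp in all-list peaks, and they covered 375 kb, or 9.06% of the length of the WT list.

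**Figure D1:**
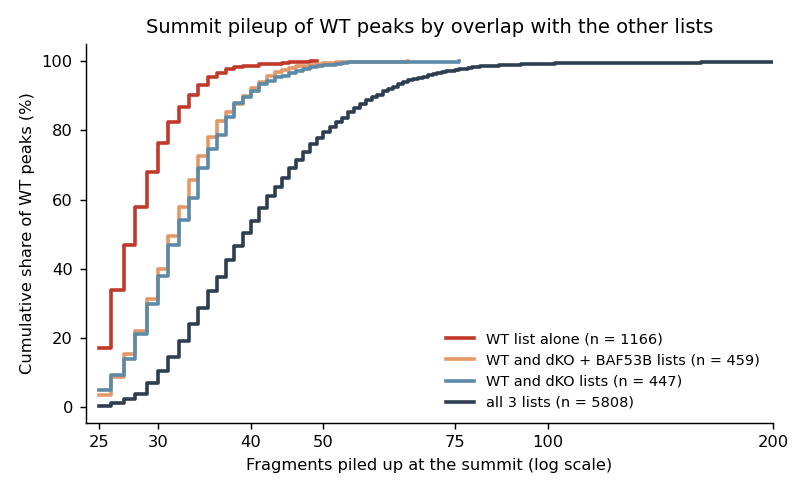
Cumulative share of WT peaks (vertical axis, %) by the number of fragments at the summit (horizontal axis, log scale, shown up to 200) for 4 sets of WT peaks, 1 line each. The line of the 1166 WT-alone regions lies leftmost, from 25 to 49 fragments, and that of the 5808 all-list peaks rightmost, with a median of 39.

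The share of WT peaks without a partner depended on this height. Among the 545 WT peaks with 25 or 26 fragments 72.7% were in the WT list alone, against 42.4% of peaks with 27 to 29 fragments, 16.9% with 30 to 33 and 2.35% with 34 or more. Of the 1297 WT peaks with 50 or more fragments none was in the WT list alone, which allows a share of up to 0.231%.

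How far the signal of the mutant groups must lie below that of WT can be read from the listing limits. The genome background, which stands for the depth of a list, stood at 6.33 fragments for WT, 6.81 for dKO and 6.78 for BAF53B. At that background the smallest pileup that was listed was 25 for WT, 25 for dKO and 26 for the BAF53B list. Scaled to the depth of the dKO list and set in the local background of each WT-alone region, the WT pileup was a median of 1.16 times the largest pileup that the dKO list would have left out (range 1.08 to 1.75). Against the BAF53B list the median was 1.11 times (1.07 to 1.74). All 1166 regions would have passed the limits of both lists at their WT level, an outcome that was fixed in advance. They had already passed a stricter limit, a lowest −log10 p of 8.36 for WT against 7.71 for dKO and 7.96 for BAF53B. Both other lists were also deeper. The lower end of the exact 95% Poisson interval of the WT pileup lay above the largest unlisted pileup at 22 regions (1.89%) for dKO and at 18 regions (1.54%) for BAF53B, and those 18 cleared both. At the other regions the largest unlisted pileup lay above that lower end. This comparison used the same WT pileups by which the regions were chosen and gave the mutant lists no counting error, so it is a description only. The peak lists give no pileup where no peak was called, so the size of any difference at these places was not measured.

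The distance to the nearest peak of another list varied widely. It depends on list length, and the dKO list held 25439 peaks and the BAF53B list 16948, against 7880 in the WT list. The part of list length in these distances was not tested. The median was 41.0 kb to a dKO peak and 60.2 kb to a BAF53B peak, and 446 regions (38.3%) were over 50 kb from both lists. At the other end, 72 regions (6.17%) had a peak of another list within 1 kb, and the smallest gap was 4 bp. The 17 regions just inside the rule, with a gap of 100 bp or less, had pileups of 25 to 37. The 4 WT peaks just outside it, whose longest overlap was 100 bp or less, had pileups of 27 to 28.

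The 10 WT-alone regions of highest −log10 q were a mixture of intronic, intergenic and promoter positions. The first was the TSPAN5 region shown above (chr4:98522627-98523236), in intron 1 of a transcript with 8 exons and 136 kb from its transcription start site (TSS). It had 44 fragments over a local background of 7.51, a fold of 5.28 and a −log10 q of 15.6. The exact 95% interval of its pileup was 32.0 to 59.1 fragments, and the nearest dKO peak was 135 kb away. The region upstream of LIMCH1, an actin-binding regulator of non-muscle myosin, was intergenic (chr4:41340533-41340822) and lay 19.0 kb before the TSS. It had 41 fragments and a fold of 5.29. The region upstream of CCDC179 (chr11:22875936-22876182) lay in a lncRNA gene with 41 fragments and a fold of 5.27.

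TSFM, which encodes a mitochondrial translation elongation factor, had a WT-alone region with its summit 19 bp before the TSS (chr12:57782593-57783236). It held the CTCF consensus, had 44 fragments and a fold of 4.85, and the nearest peaks of the other lists were 9.82 kb (dKO) and 9.79 kb (BAF53B) away. PRICKLE2, a planar cell polarity protein, had a region in intron 2 (chr3:64187082-64188065) with 45 fragments and a fold of 4.47, and its summit lay 136 bp before the start of the antisense lncRNA PRICKLE2-AS3. P3H1, an enzyme that hydroxylates collagen, had 48 fragments and a fold of 4.13 in intron 1 (chr1:42765420-42766177), and a dKO peak stood 0.482 kb away. PDE4A, a phosphodiesterase that breaks down cyclic AMP, had 44 fragments in intron 6 (chr19:10454277-10454778). INTU, a planar cell polarity effector needed to build cilia, had 36 fragments in intron 8 (chr4:127698828-127699252). The remaining 2 were intergenic on chromosome 22, at 11023026 to 11023331 and 11062597 to 11062864, 4505 kb and 4465 kb from a protein-coding TSS. The first of them lay in sequence found at a median of 2 places in the genome.

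These 10 were among the 18 regions that cleared both lists. The other 8, named because the count was seen to be small, had 34 to 37 fragments. Some lay in introns of CSMD1, TPH2 and RAVER2 and in the body of ANK2 outside its canonical transcript. The rest lay in lncRNA genes or intergenic DNA whose nearest protein-coding starts were those of SLC12A2, FAM86B2, FBXO8 and HK2. TPH2 is the neuronal enzyme of serotonin synthesis and ANK2 an ankyrin of axons, and the ANK2 region (chr4:113049414-113049775, 35 fragments) had the highest −log10 q of all WT-alone regions with the RFX consensus. Of the 18 regions 2 were at promoters and 2 lay in sequence present more than once.

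WT-alone regions lay mostly away from gene starts. The summit was within 3 kb of a protein-coding TSS, here called a promoter position, in 85 regions (7.29%, 95% interval 5.93 to 8.93%), against 73.6% of all-list peaks (72.4 to 74.7%). The share was 12.6% in WT peaks shared with the BAF53B list only (9.90 to 15.99%) and 49.4% in those shared with the dKO list only (44.8 to 54.1%). Introns of protein-coding genes held 464 regions (39.8%), intergenic DNA 411 (35.2%), lncRNA genes 179 (15.4%) and exons 27 (2.32%). The median distance to a protein-coding TSS was 81.5 kb, and 712 regions (61.1%) were over 50 kb away. In median distance WT-alone regions were close to the peaks shared with BAF53B only (85.7 kb). Over all heights their promoter share was lower than in those peaks, and the intervals did not overlap. Within bands of height they did overlap, as given below. The share over all WT-alone regions was also below that of the 5195 peaks in the BAF53B list alone (9.89%, 9.11 to 10.74%). Of the 13728 peaks in the dKO list alone 21.3% were at promoters.

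**Figure D2:**
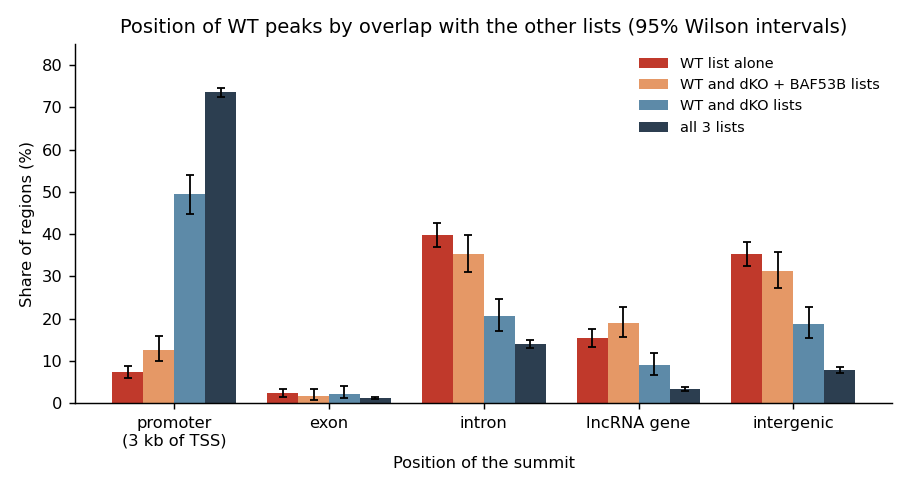
Share of regions (vertical axis, %) at promoters, in exons, introns, lncRNA genes and intergenic DNA for 4 sets of WT peaks; bars start at 0 and error bars are 95% Wilson intervals. WT-alone regions reach 7.29% at promoters and 39.8% in introns, whereas 73.6% of all-list peaks are at promoters.

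The promoter share was larger in higher regions. It was 0.758% in the 396 WT-alone regions with 25 or 26 fragments, 6.57% with 27 to 29, 8.46% with 30 to 33 and 29.8% in the 114 regions with 34 or more (95% interval of the last 22.2 to 38.8%). In every one of these bands the share was lower than in all-list peaks of the same band, which ranged from 47.1% to 77.4%, and the intervals did not overlap. Beside peaks shared with the BAF53B list only, the intervals overlapped in every band. WT-alone regions had the lower share in the bands under 34 fragments. With 34 or more fragments the order was the other way, as those peaks had 19.6% (14.2 to 26.5%).

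The 85 promoter regions belonged to 85 genes and had a median pileup of 32. At 42 of these gene starts the dKO or BAF53B list had another peak within the same 3 kb, and 35 regions had such a peak within 1 kb. The share over all gene starts is not given here, so these counts cannot be called high or low. After TSFM, the strongest by fold were at NAV3, a microtubule-binding neuron navigator (35 fragments, 4.14-fold, summit 249 bp after the TSS), P3H1 (above) and NEURL1, a ubiquitin ligase known from Notch signalling (39 fragments, 4.05-fold, 2867 bp before the TSS). TMEM74 had 35 fragments (4.03-fold). TYMS, the thymidylate synthase, had 33 fragments (4.01-fold) in intron 1. SLC18A1, a vesicular monoamine transporter, had 37 fragments (3.99-fold) with the summit 37 bp before the TSS. THBS2, a thrombospondin of the extracellular matrix, also had 37 fragments (3.98-fold). MGAT4B, a glycosyltransferase whose start lies beside that of SQSTM1, had 35 fragments (3.89-fold). KRTAP4-6, a keratin-associated protein of hair, had 29 fragments (3.83-fold).

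The bases around the summit of WT-alone regions differed from those of shared peaks. The median GC content within 100 bp was 47.3% (quartiles 42.8 and 52.2%), against 64.2% in all-list peaks, 60.2% in peaks shared with dKO only and 47.3% in peaks shared with BAF53B only. Windows 1 kb away from the WT-alone summits had a median of 41.0%. The ratio of observed to expected CpG dinucleotides was 0.181 in WT-alone regions and 0.835 in all-list peaks.

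GC content separated WT peaks with and without a partner also among peaks away from promoters. Of those at 45% GC or less, 52.4% were in the WT list alone (48.9 to 55.8%). The share was 44.9% from 45 to 50% GC, 43.3% from 50 to 55%, 24.7% from 55 to 60%, 7.63% from 60 to 65% and 2.69% above 65%. At WT peaks away from promoters that had a dKO partner, the dKO pileup, each scaled to its list's genome background, moved the same way with GC. The median log2 of dKO over WT was −0.06 at 45% GC or less (221 peaks), 0.14 from 45 to 50%, 0.29 from 50 to 55% and 0.74 above 65% (501 peaks). For the BAF53B list the corresponding medians were 0.05 at 45% GC or less and 0.22 above 65%. At promoters the dKO medians lay between 0.59 and 0.79 in all bands, with no such trend. The share in the WT list alone still differed by GC there, at 7 of 35 peaks at 45% GC or less, 17.3% from 45 to 50%, 4.86% from 50 to 55% and 0.859% above 65%. The part of base composition in the absence of WT-alone regions from the other lists was not tested.

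**Figure D3:**
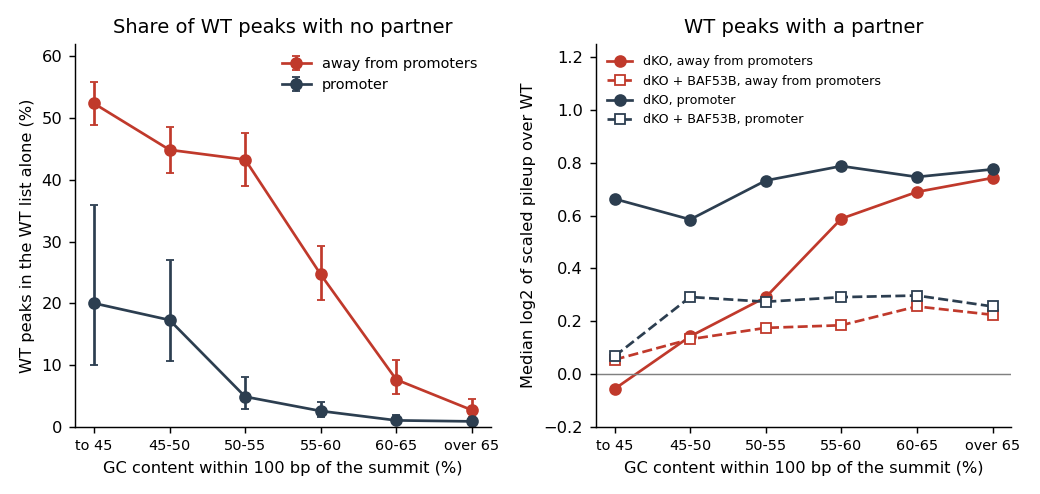
Left, share of WT peaks in the WT list alone (vertical axis, %, with 95% Wilson intervals) by GC content within 100 bp of the summit (horizontal axis) for peaks at promoters and away from them. Right, median log2 of the pileup over WT, each scaled to its genome background, at WT peaks with a partner in the dKO list (filled) or the BAF53B list (open). Away from promoters the share falls from 52.4% to 2.69% as the dKO median goes from −0.06 to 0.74.

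The sequence around the summits was then searched for the consensus sequences of 20 factors, within 100 bp of the summit and in 2 windows of the same length centred 1 kb to either side. The choice of members did not use sequence. The AP-1 consensus was found in 116 WT-alone regions (9.95%, 95% interval 8.36 to 11.8%) and in 3.47% of the windows 1 kb away. Over all peaks of a list, the share was 5.55% for WT, 3.54% for dKO and 7.84% for BAF53B. Only 3 of the 116 regions were at promoters, 52 were in introns and 42 were intergenic. In the TSPAN5 sequence above the AP-1 match stands within 50 bp of the summit, and over the 116 regions the median distance was 45.5 bp. The consensus was found in 28.1% of the peaks shared with BAF53B only (24.2 to 32.4%) and in 2.98% of all-list peaks (2.57 to 3.45%).

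Part of that contrast went with position. Away from promoters the AP-1 share was 10.5% in WT-alone regions (8.77 to 12.4%), 7.49% in all-list peaks (6.28 to 8.92%), 7.52% in peaks shared with dKO only (4.75 to 11.7%) and 31.2% in peaks shared with BAF53B only (26.8 to 35.9%). The intervals of the first 3 overlapped and that of the last lay above them. Read the other way, the 370 WT peaks away from promoters with the AP-1 consensus were in the WT list alone in 30.5% of cases (26.1 to 35.4%), which differed little from 33.7% of the peaks without it (32.0 to 35.4%). They were shared with BAF53B only in 33.8% of cases (29.1 to 38.7%), against 9.61% of the peaks without it (8.58 to 10.7%). Among WT peaks missing from the dKO list, those with AP-1 were thus present and absent in the BAF53B list about equally often, at 125 and 113 peaks, a difference within counting error. Those without it were more often absent, at 276 present and 968 absent.

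By height, the AP-1 share of WT-alone regions was 5.56% at 25 or 26 fragments, 11.1% at 27 to 29, 14.2% at 30 to 33 and 11.4% at 34 or more. The peaks shared with BAF53B only had 22.3% to 32.5% in the same bands, so they held more AP-1 sequence than WT-alone regions at each height. Their intervals did not overlap those of WT-alone regions in any band.

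**Figure D4:**
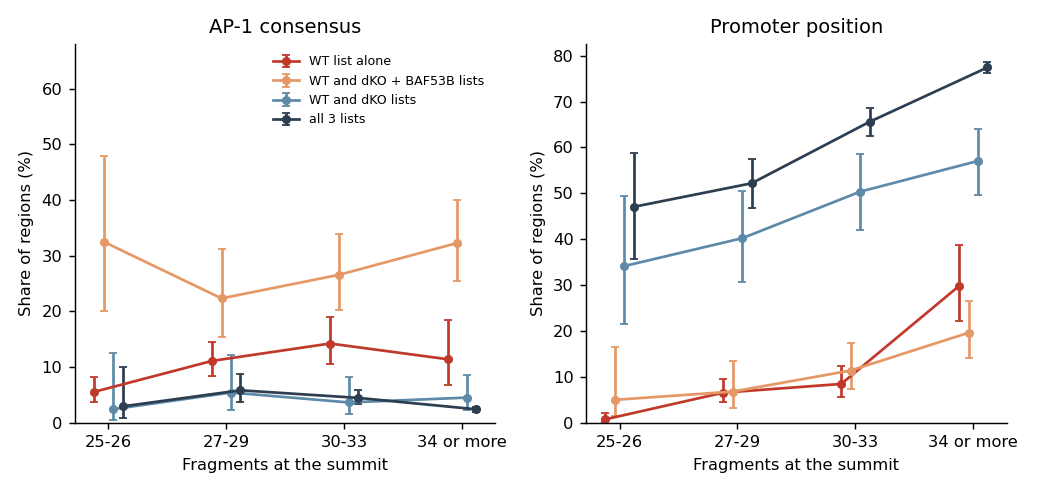
Share of regions (vertical axes, %) with the AP-1 consensus (left) and at promoters (right) by the number of fragments at the summit (horizontal axes) for 4 sets of WT peaks; points are shares and bars are 95% Wilson intervals. WT-alone regions have an AP-1 share of 5.56% to 14.2%, below the peaks shared with the BAF53B list only, and a promoter share of 0.758% to 29.8%, below all-list peaks.

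The RFX consensus was found in 24 WT-alone regions (2.06%, 1.39 to 3.04%) and in 0.0858% of the windows 1 kb away. The share over the whole WT list was 1.89%. It reached 8.77% (4.84 to 15.4%) in the 114 WT-alone regions with 34 or more fragments, or 10 regions. In that band it was 4.43% (2.16 to 8.86%) in peaks shared with BAF53B only and 3.39% (1.56 to 7.20%) in those shared with dKO only. Both intervals overlap that of WT-alone regions. All-list peaks of the band had 1.79% (1.44 to 2.23%), but they reach 802 fragments, and their promoter share was 77.4% against 29.8% in WT-alone regions. In the lower bands the RFX share of WT-alone regions was 1.26% at 25 or 26 fragments, 1.01% at 27 to 29 and 1.92% at 30 to 33. Away from promoters the order was the other way, at 1.76% of WT-alone regions (1.128 to 2.73%) and 3.13% of all-list peaks (2.37 to 4.12%), with overlapping intervals. Of the 89 WT peaks away from promoters with the RFX consensus 21.3% were in the WT list alone (14.1 to 30.95%), against 33.7% of those without it (32.0 to 35.3%). Of the 24 regions 5 were at promoters. These included the starts of AKAP6, an anchoring protein for protein kinase A, with the summit 39 bp after the TSS and 28 fragments, and of CSNK1G2, a casein kinase, with 38 fragments. A further one was at RIIAD1 within the gene of the RNA-binding protein CELF3, with 42 fragments, and another at DAAM1, a formin of planar cell polarity signalling, with 35 fragments. Others lay in introns of NRXN3, a presynaptic adhesion protein, of CACNA1G, a calcium channel subunit, and of PNOC, the nociceptin precursor. The 33 listed RFX factor and cilium genes had no WT-alone region, where 2.93% of all protein-coding genes had one. Of the 33 genes 16 were over 100 kb, a length at which 10.0% of all genes had one. A further limit is that 2 were over 500 kb, where 26.9% did. With so few genes, the absence cannot be called low. An all-list peak was present at 21 of the 33, without a share over all genes to set beside it.

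The CTCF consensus was found in 35 WT-alone regions (3.0%, 2.17 to 4.15%) and again in 0.0858% of the windows 1 kb away. It stood within 50 bp of the summit in 26 of them, as in the CCDC179 sequence above. Away from promoters the share was 2.96% in WT-alone regions and 2.93% in all-list peaks, and 4.77% in the peaks of the dKO list alone (4.38 to 5.19%). An exact match to the AP-1, RFX or CTCF consensus was present in 172 WT-alone regions (14.8%), and 2 regions held both AP-1 and RFX. The SYNE1 sequence above is one of these, with its AP-1 match in lower case.

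The sequence CAGATG, an E-box bound by proneural factors such as the NEUROD family, was found in 205 WT-alone regions (17.6%, 15.5 to 19.9%) and in 11.3% of the windows 1 kb away (10.1 to 12.6%). Away from promoters the share was 17.7% (15.5 to 20.1%) in WT-alone regions, 8.14% in all-list peaks (6.88 to 9.62%) and 16.7% in peaks shared with BAF53B only. The TEAD consensus GGAATGT was in 4.55% of WT-alone regions and 3.0% of windows 1 kb away, and the SOX consensus, CCATTGT or CCTTTGT, in 8.83% and 6.78%. The intervals overlapped for both. The homeobox core TAATTA was rarer at the summits, at 3.60% (2.68 to 4.83%), than 1 kb away, at 8.32% (7.27 to 9.51%), where the sequence was also richer in A and T.

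Sequences typical of general promoters were near their level in the surroundings. The NFY box GCCAAT was in 7.55% of WT-alone regions, 6.90% of windows 1 kb away and 25.7% of all-list peaks. The SP/KLF sequence GGGGCGGGG was in 0.772% of WT-alone regions and 19.8% of all-list peaks, and the ETS sequence CCGGAAGT in 0.172% and 7.09%. The NRF1 and YY1 sequences were found in none of the 1166 regions, which allows a share of up to 0.257%, and in 2.48% and 2.74% of all-list peaks.

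**Figure D5:**
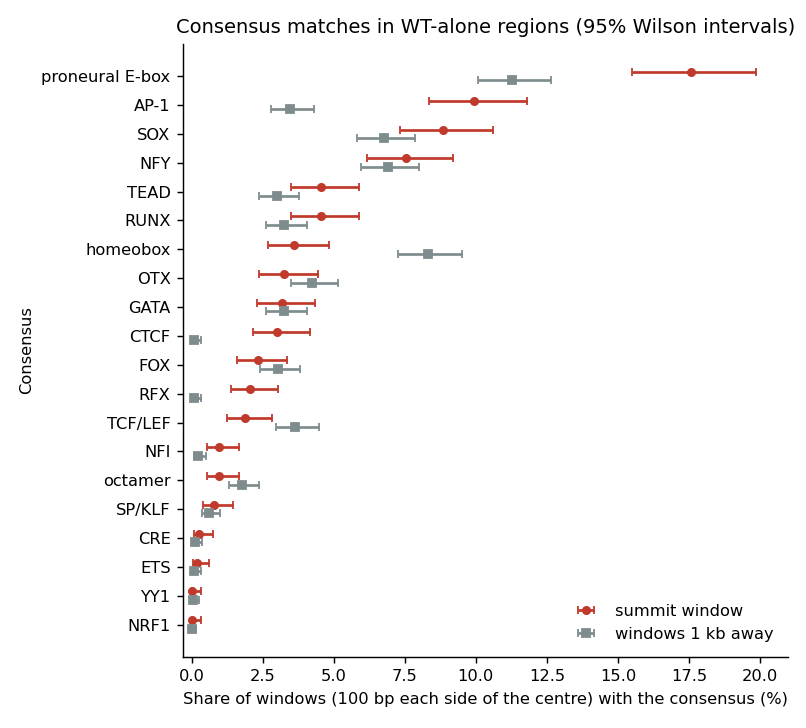
Share of windows, 100 bp to each side of the centre (horizontal axis, %), with the consensus of each of 20 factors (vertical axis) at the summits of WT-alone regions (circles) and 1 kb away (squares), with 95% Wilson intervals. AP-1 (9.95% against 3.47%), CTCF, RFX and the proneural E-box lie to the right of their surroundings, and the homeobox core lies to the left.

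A count of all 7-letter words that occurred in at least 2% of the summit windows gave a view free of the chosen factors. Ordered by their ratio to the windows 1 kb away, with 1 count added to the latter, the AP-1 word stood at rank 10 of 4119 with a ratio of 2.86. The leading words were CCAGCGC, in 26 regions at a ratio of 6.50, and CAGCGCC, in 33 regions at a ratio of 6.0, and they share 6 letters. CGCTGGC came next, in 24 regions at a ratio of 4.80, and then CAGCAGG, in 117 regions (10.0%) at a ratio of 3.08. CCAGCGC was more common in all-list peaks (8.99%), and CAGCAGG was less common there (6.44%). Of the 33 regions with CAGCGCC 2 also held the CTCF consensus.

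Genes were then examined by the regions they hold. Of 20033 protein-coding genes 586 (2.93%) had a WT-alone region in the gene body or within 3 kb, and 538 of these had 1 region. The genes were long, with a median of 145 kb against 27.5 kb for all protein-coding genes. Of 3667 genes over 100 kb 10.0% had a WT-alone region, and of 323 genes over 500 kb 26.9%. Only 6 genes held 3 or more. ARID1B, a subunit of the BAF complex, held 4 in its 435 kb, all intronic, with 25 to 29 fragments and 3.24- to 3.73-fold. FAT3, an atypical cadherin, held 3 with 27 to 34 fragments, of which 1 was at its promoter. NAV3 held 3 with 25 to 35 fragments, including the promoter region above. GPC6, a heparan sulphate proteoglycan of the cell surface, MACROD2, which removes ADP-ribose from proteins, and TNIK, a kinase of the WNT pathway and of synapses, held 3 each. The strongest of these was in MACROD2 (chr20:15221149-15221522, 35 fragments, 4.24-fold) and held the AP-1 consensus.

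Among the gene lists examined, synaptic adhesion and axon guidance genes most often held a WT-alone region, at 11 of 34 (32.4%). All 34 of these genes were over 100 kb, and in the 23 of them over 500 kb the count was 10, against the 26.9% of all genes of that length. CNTN5, a contactin of axons, had 31 fragments and 4.20-fold in intron 1 (chr11:99069825-99070161), with a dKO peak 2.90 kb away. PCDH9, a protocadherin, held 2 regions, the stronger with 29 fragments and 3.85-fold. CDH13 had 29 fragments (3.72-fold) and CNTNAP5 27 (3.56-fold), both in introns. NEGR1, NRXN3, ROBO2, SEMA6D, SLIT2, SLIT3 and CNTN4 completed the list.

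Of 28 neuronal differentiation genes 4 held a WT-alone region. All 4 were among the 13 of these genes over 100 kb, of which 10.0% did so over all genes, and 3 were among the 5 over 500 kb, against 26.9%. These were ANK2 (35 fragments), the glutamate receptor subunit gene GRIN2B (35 fragments, 4.16-fold, intron 11), the splicing factor gene RBFOX1 (25 fragments) and the synaptic vesicle fusion gene SNAP25 (27 fragments). Of 32 NPC and radial glia genes CDH2 alone held a region (3.12%, against 2.93% of all genes). This gene of N-cadherin had a region with 31 fragments, 3.60-fold and the AP-1 consensus in intron 2 (chr18:28086550-28087228). The other NPC genes named above had no WT-alone region.

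Of 39 collagen and extracellular matrix genes 5 held a region, and 4 of these were among the 19 over 100 kb, against 10.0% of all genes of that length. ITGA1, the integrin subunit of a collagen receptor, had 30 fragments (4.23-fold), COL9A1 27 (3.82-fold), COL25A1 26 (3.60-fold) and COL5A2 27 (3.59-fold), and COL12A1 was the fifth. The Notch, WNT, neural crest, pluripotency and BAF lists had 1 or 2 genes each with a region. Their shares were 3.85% to 7.69%, beside the 2.93% of all genes. All genes with a region in these lists were over 100 kb, a length at which 10.0% of all genes had one. In the Notch pathway RBPJ, its DNA-binding effector, was the only gene of 26 with a region, with 25 fragments in intron 1. In the WNT pathway there were 2 of 42, the kinase GSK3B with 26 fragments and the repressor TCF7L1 with 33. RUNX2, a regulator of bone formation, was the only one of 22 neural crest and mesenchyme genes, with 30 fragments (3.86-fold) and the TEAD sequence. LIN28B was the only one of 13 pluripotency genes, with 31 fragments 4.50 kb after its TSS. Of 39 BAF, polycomb, KDM6 and COMPASS genes ARID1B and KMT2C held regions. KMT2C, a histone methyltransferase, had the lowest fold of all WT-alone regions, 2.54 with 46 fragments, and a BAF53B peak stood 0.103 kb away. The lists of glial genes (15), AP-1 factors (15), YAP/TEAD and cytoskeletal targets (23), epithelial genes (16), cell cycle genes (33) and NKG2D ligands (8) held no region.

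WT-alone regions were spread over the genome, with a median gap of 1.57 Mb between neighbouring summits and 38 of 1142 neighbouring pairs under 50 kb apart. Per 10 Mb of chromosome there were 2.80 (chromosome 14) to 5.44 (chromosome 6) on the autosomes. As a share of the WT peaks of a chromosome they ranged from 4.12% on chromosome 19 (25 of 607, 2.81 to 6.01%) to 30.8% on chromosome 18 (36 of 117, 23.1 to 39.6%). Chromosome 19 also had the highest promoter share of its WT peaks among the autosomes, 75.3%. Among peaks away from promoters the shares were 10.7% on chromosome 19 and 55.2% on chromosome 18. Sequence present at more than 1 place in the genome, by the median copy number of 31-base words, underlay 37 WT-alone regions (3.17%, 2.31 to 4.34%). The share was 3.13% in peaks shared with dKO only (1.88 to 5.19%) and 2.83% in those shared with BAF53B only (1.66 to 4.79%). It was 2.07% in all-list peaks (1.73 to 2.47%), and the intervals of all these sets overlapped that of WT-alone regions. In the peaks of the dKO list alone it was 1.37% (1.19 to 1.58%).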

How the data were processed

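ATAC-seq peak lists of NPCs were analysed, 1 list per group pooled over 2 replicates. Per the study's methods, adapters were trimmed with cutadapt 1.13, reads were aligned to hg38 with Bowtie2 2.2.5, duplicates were removed with SAMtools 1.3.1 and Picard 1.90, and peaks were called with MACS2. The MACS2 version and options and any shift for Tn5 insertion are not given in the sources used here. The deposited fold is a ratio of summit pileup over local background. The deposited −log10 p-values and −log10 q-values are Poisson values of the same pileup, and each list holds peaks of −log10 q of at least 5. The deposited summit offset gives the position of the summit.

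The whole pileup and the local background were solved from those scores (100% of peaks to a whole number, within 0.001 on the −log10 scale). The lowest background of a list stands for its depth. Genes and exons were from GENCODE version 44 (hg38). Each gene had 1 TSS, at the upstream end of its whole annotated span, so starts of its other transcripts were not used. The COL5A2 region, for example, lay in exon 1 of the canonical transcript but 45.6 kb from that TSS. Exons were those of canonical transcripts. Any other place in the body of a protein-coding gene, away from promoters, was called an intron. A gene in the lists counted as holding a region when a summit lay in its body or within 3 kb. Consensus sequences were matched without mismatch on both strands of hg38, within 100 bp of the summit. SOX, CRE and AP-1 matches can overlap other sequences. Copy number was the median over 5 31-base words per window. Intervals at the 95% level (Wilson for shares, exact Poisson for pileups) cover counting error alone. The solving of pileups, the overlap rule and the matching of consensus sequences were tested on simulated data, and the other steps were not. The analysis ran in Python 3.11.15 with pandas 2.3.3, numpy 2.4.6, pysam 0.24.0 and scipy 1.17.1, and plots were drawn with matplotlib 3.10.9.

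The members and gene lists were chosen with earlier results of these data known. Named were the 10 regions of highest −log10 q, the 10 promoter regions of highest fold, genes with 3 or more regions and up to 4 genes by fold per list, beside those marked as chosen after their values were seen. The results were recomputed with a gap of 1 kb, a reciprocal overlap of 50%, lists of equal length, a limit of 10 on the −log10 q, autosomes only, a TSS window of 1 kb, all annotated genes, a window of 50 bp and regions over 3 kb from any TSS. Regions of single-copy sequence and regions above 26 fragments were added after the data had been seen. Soft-masking of repeats was not analysed, because the reference sequence carries no masking.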

Additional observations from a re-analysis of the deposited data

How the results depend on the processing

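No paired analysis was possible because 1 pooled list stands for both replicates of a group, and no replicate could be left out. The repeat measure based on soft-masking was not run, as the reference sequence is in capitals throughout. The number of WT-alone regions rested on the listing threshold and on the overlap rule. It was 22 with WT peaks of −log10 q of at least 10, 97 with that limit in all lists, 2178 with lists of equal length, 2181 with a reciprocal overlap of 50% and 770 without regions of 25 or 26 fragments. The share within 3 kb of a TSS was, in the same order, 9.09%, 27.8%, 21.5%, 37.6% and 10.6%, and it was 4.57% with no other peak within 1 kb, 4.72% with a TSS window of 1 kb and 14.2% with the starts of all annotated genes. The AP-1 share was 13.6% and 18.6% under the 2 stricter limits, 6.92% with reciprocal overlap, 12.2% without regions of 25 or 26 fragments and 5.57% within 50 bp of the summit. The RFX share was 4.55% and 4.12% under the 2 stricter limits and 1.37% within 50 bp. The median GC content was 45.8% and 48.8% under the 2 stricter limits, 49.8% with equal length, 54.2% with reciprocal overlap and 48.3% without regions of 25 or 26 fragments. The settings not named for a result moved it by less than its counting error, or for the number by less than 1.5 times. The cause of these shifts was not tested.

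In all 5 forms of the overlap rule compared, the promoter share of all-list peaks was above that of WT-alone regions, and the AP-1 share of WT-alone regions lay between that of all-list peaks and that of peaks shared with BAF53B only. With a limit of 10 in all lists, the AP-1 shares were 18.6% of 97 regions and 23.9% of 88 peaks.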

Other observations

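Other factor sequences stood in WT-alone regions about as often as in the windows 1 kb away. The RUNX sequence TGTGGTT was in 53 regions (4.55%, 3.49 to 5.90%) against 3.26% of those windows, the GATA sequence AGATAAG in 37 (3.17%) against 3.26%, the OTX sequence, CTAATCC or TTAATCC, in 38 (3.26%) against 4.24%, and the FOX sequence TGTTTAC in 27 (2.32%) against 3.04%. The intervals overlapped for these 4. The NFI consensus, of a family with roles in glial and neural progenitor cells, was in 11 regions (0.943%, 0.528 to 1.68%) against 0.214% (0.0916 to 0.501%). The TCF/LEF sequence CTTTGAT, the target of WNT signalling, was rarer at the summits, in 22 regions (1.89%, upper bound 2.84%), than 1 kb away (3.64%, lower bound 2.96%), where A and T were more common.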
